A study of Mus musculus with 4 samples.

Results

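The smallest CpG island regions that a CpG island array can score with more than a pair of probes were described in neonatal mouse brain. Autosomal probes were joined into 1 region where the next probe lay at most 1000 bp away, and regions with exactly 3 or 4 probes were kept when the input signal of every probe was well above background on all 4 arrays. Of 14178 autosomal regions, 4253 held 3 or 4 probes, and 3283 of these passed the input filter and are called small regions. They comprised 1461 regions with 3 probes and 1822 regions with 4 probes, and 11671 probes in all. They were set against 5606 longer regions of 5 or more probes that passed the same filter. The regions are groups of neighbouring probes on the mm9 build, and no table of island borders was used.

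The study asked whether exposure of pregnant mice to titanium dioxide nanoparticles (TiO2-NP) alters DNA methylation in the brain of the offspring. C57BL/6J dams received 25 uL of vehicle (Sham, 5 dams) or of a TiO2-NP suspension (TiO2-H, 6 dams, 100 ug per mouse) through the trachea. The sample names date the treatment to gestational day 14, whereas the treatment protocol dates it to day 10.5. Whole brains were taken at 1 day of age, and DNA from 2 offspring per dam was pooled into 4 samples by sex and exposure. Values on the 4 arrays are given with Sham before TiO2-H and male before female within each. Each pool filled 1 array, so the data hold no replicate within a sex and exposure. An antibody to 5-methylcytosine pulled down the methylated DNA (MeDIP), which was labelled with Cy5, and the input DNA was labelled with Cy3.

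The value of a region is the median over its probes of log2(Cy5/Cy3), centred on the autosomal median of the array. A value of 0 is thus the level of the median probe, and a value of 1 is a MeDIP over input ratio 2 times higher. Both male-labelled pools lay on 1 slide and both female-labelled pools on the other. The input signal of 2471 X-linked probes, relative to autosomes, was -0.75 (Sham male), 0.03 (Sham female), 0.03 (labelled TiO2-H male) and -0.74 (labelled TiO2-H female). The X-linked input of both TiO2-H arrays therefore ran against their sex labels, and results that compare arrays by sex label are given below with these labels crossed as well. Cy5 was well above background at 51.2% and 58.8% of the autosomal probes of the Sham arrays (male, female), against 24.6% and 32.9% for TiO2-H.

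CpG islands are short stretches of DNA rich in CpG dinucleotides that cover many gene starts. Most islands at the promoters of genes in use carry little 5-methylcytosine, whereas islands of germline genes, of the silent allele of imprinted genes and within gene bodies are often methylated in somatic tissues, the brain included. The antibody binds several methylated cytosines on a fragment, so the enrichment of a fragment depends on both its methylation and its number of CpGs. The values are relative enrichments, not fractions of methylated cytosine.

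The sequences below show gene starts with a small region at the promoter, so that their CpG content can be seen. Each is the RefSeq promoter window on GRCm38.p6, from 250 bases before to 50 bases after the gene start, with the CpG dinucleotides in capitals. Hormad1, Stk31 and Tuba3a come from a list of germline genes. Henmt1 and Naa11 had the highest means among small regions at a promoter that were at or above 1 on all arrays. The array positions are on mm9, so the windows and the probes were linked by gene symbol only. Hormad1, which encodes a protein of the meiotic chromosome axis, has 24 CpGs in chr3:95559427-95559726 on the plus strand. Stk31, a germ cell gene for a kinase-like Tudor protein, has 29 in chr6:49395289-49395588 on the plus strand. Tuba3a, a testis alpha-tubulin, has 12 in chr6:125286032-125286331 on the minus strand. Henmt1, the methyltransferase of piRNA 3′ ends, has 31 in chr3:108940307-108940606 on the plus strand. Naa11, a testis paralogue of the catalytic subunit of an N-terminal acetyltransferase, has 16 in chr5:97392281-97392580 on the minus strand.
Hormad1: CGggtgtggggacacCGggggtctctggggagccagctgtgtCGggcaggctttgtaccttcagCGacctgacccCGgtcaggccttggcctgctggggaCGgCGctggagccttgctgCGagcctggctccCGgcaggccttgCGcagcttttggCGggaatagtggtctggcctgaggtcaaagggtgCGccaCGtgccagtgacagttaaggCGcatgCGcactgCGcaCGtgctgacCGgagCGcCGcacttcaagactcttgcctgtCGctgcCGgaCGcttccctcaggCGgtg
Stk31: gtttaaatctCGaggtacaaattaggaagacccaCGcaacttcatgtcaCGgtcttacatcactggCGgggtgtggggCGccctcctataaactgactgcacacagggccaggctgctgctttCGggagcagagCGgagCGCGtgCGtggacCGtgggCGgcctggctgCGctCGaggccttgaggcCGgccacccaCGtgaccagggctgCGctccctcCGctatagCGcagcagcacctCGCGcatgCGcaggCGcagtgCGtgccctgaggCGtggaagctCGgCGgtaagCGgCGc
Tuba3a: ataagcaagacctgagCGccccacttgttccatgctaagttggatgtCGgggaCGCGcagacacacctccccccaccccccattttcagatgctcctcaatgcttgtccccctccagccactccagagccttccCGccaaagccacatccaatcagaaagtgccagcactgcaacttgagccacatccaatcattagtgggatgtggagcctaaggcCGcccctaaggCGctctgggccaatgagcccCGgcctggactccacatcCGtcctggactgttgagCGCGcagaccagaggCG
Henmt1: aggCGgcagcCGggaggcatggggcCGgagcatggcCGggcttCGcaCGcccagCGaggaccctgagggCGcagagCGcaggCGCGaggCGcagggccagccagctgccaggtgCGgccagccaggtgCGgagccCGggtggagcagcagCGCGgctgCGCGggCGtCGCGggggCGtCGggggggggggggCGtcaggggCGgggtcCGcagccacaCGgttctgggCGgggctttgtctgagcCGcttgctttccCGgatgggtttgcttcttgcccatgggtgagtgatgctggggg
Naa11: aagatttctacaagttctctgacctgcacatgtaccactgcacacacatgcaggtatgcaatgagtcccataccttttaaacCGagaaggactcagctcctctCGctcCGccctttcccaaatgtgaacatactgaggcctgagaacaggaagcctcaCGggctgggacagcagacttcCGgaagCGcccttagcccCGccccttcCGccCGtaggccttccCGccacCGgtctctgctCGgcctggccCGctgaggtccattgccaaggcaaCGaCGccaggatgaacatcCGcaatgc
Windows with at least as many CpGs as these made up 20.0% of all promoters for Hormad1, 12.7% for Stk31, 40.1% for Tuba3a, 10.3% for Henmt1 and 33.5% for Naa11. Genes with a small region at their promoter had a median of 21 CpGs per 300 bases (117 genes found in the promoter table), genes with a longer promoter region had 25 (511 genes), and all 27025 genes had 7.

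The small regions spanned 180 to 1457 bp with a median of 408 bp (quartiles 335.5 and 503), against a median of 825 bp in longer regions. Neighbouring probes were a median of 85 bp apart in small regions and 73 bp apart in longer ones. The nearest other region lay a median of 21280 bp away from a small region and 28764.5 bp away from a longer one. The input filter kept 77.2% of the regions with 3 or 4 probes and 63.4% of those with 5 or more. The 970 small candidates that it left out had medians of 0.37, 0.15, 0.56 and 0.44 on the 4 arrays, all above the medians of the kept regions.

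Small regions were slightly more enriched than longer regions on each array. Their median was -0.04 and 0.04 in the Sham pools and -0.06 in both TiO2-H pools, where longer regions had -0.16, -0.06, -0.15 and -0.16. The difference was 0.12, 0.10, 0.09 and 0.10 on the log2 scale, with a mean of 0.10 ± 0.01 (SD, n = 4 arrays). An exact sign-flip test over the arrays gave p = 0.125 (two-sided), the smallest value that 4 arrays allow. The difference depended on which probes stood for the longer regions. With each longer region read from its middle 3 probes, the difference was -0.14 for Sham male and -0.13 for TiO2-H female, and 0.02 on both other arrays, so that the mean turned to -0.060. With the first 3 probes of each longer region, the edge of the region, the mean difference was 0.12. It also turned, to -0.14, among the 113 small and 28 longer regions whose Cy5 signal was well above background at every probe on all arrays.

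**Figure D1:**
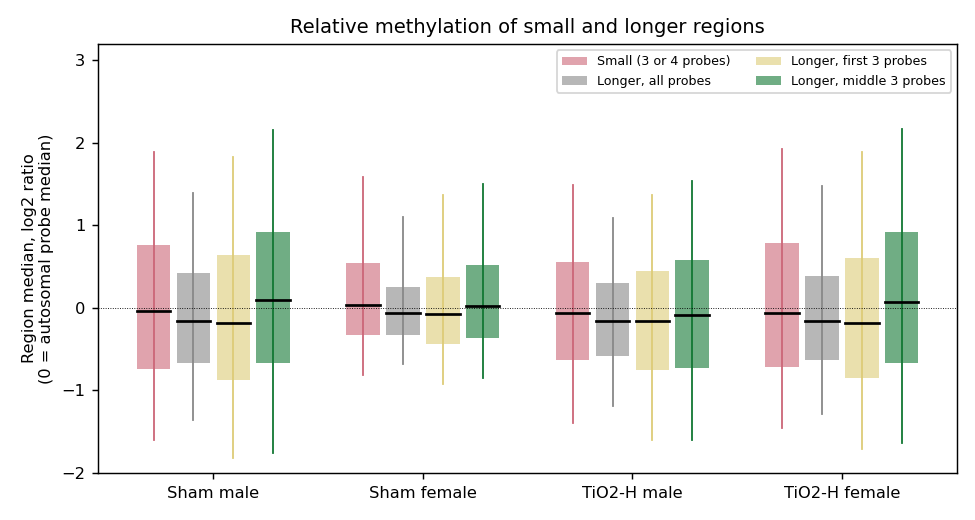
Region medians (log2 ratio, 0 is the median autosomal probe) of 3283 small regions and of 5606 longer regions, read from all probes, the first 3 or the middle 3, on the 4 arrays. Black lines are medians, boxes the quartiles and thin lines the 5th to 95th percentiles. Small regions sat 0.09 to 0.12 above longer regions read in full, and spread about as widely as longer regions read from 3 probes.

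The values of small regions were more spread than those of longer regions when all probes were used. The median absolute deviation (MAD) among small regions was 0.74, 0.42, 0.60 and 0.72 on the 4 arrays, against 0.55, 0.28, 0.44 and 0.50 among longer regions. The ratio averaged 1.40 ± 0.06 (SD, n = 4 arrays). It is given without a p-value, because the classes differ by rule in the number of probes per median and all arrays carry the same probes. The ratio was 1.01 with longer regions read from their first 3 probes and 0.928 with their middle 3. Why the spread differed was not tested. The share of regions at or above 1 followed the same course. It was 19.6%, 15.3%, 14.1% and 20.6% of small regions on the 4 arrays in the same order, against 11.0%, 5.73%, 5.65% and 10.8% of longer regions, and 23.2%, 11.9%, 13.6% and 23.0% of longer regions read from their middle 3 probes.

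The number of probes graded the values within small regions as well. With 3 probes, 22.1% of the regions on the Sham male array were at or above 1, with 4 probes 17.5%, with 5 or 6, just outside the rule, 13.2%, and with 15 or more probes 5.99%. On the Sham female array these shares were 17.3%, 13.6%, 7.44% and 1.80%. The share at or below -1 also fell with the number of probes, on the Sham male array from 17.9% with 3 probes to 15.7% with 4 and 4.79% with 15 or more. The MAD on the Sham male array fell from 0.78 with 3 probes to 0.70 with 4 and 0.36 with 15 or more.

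**Figure D2:**
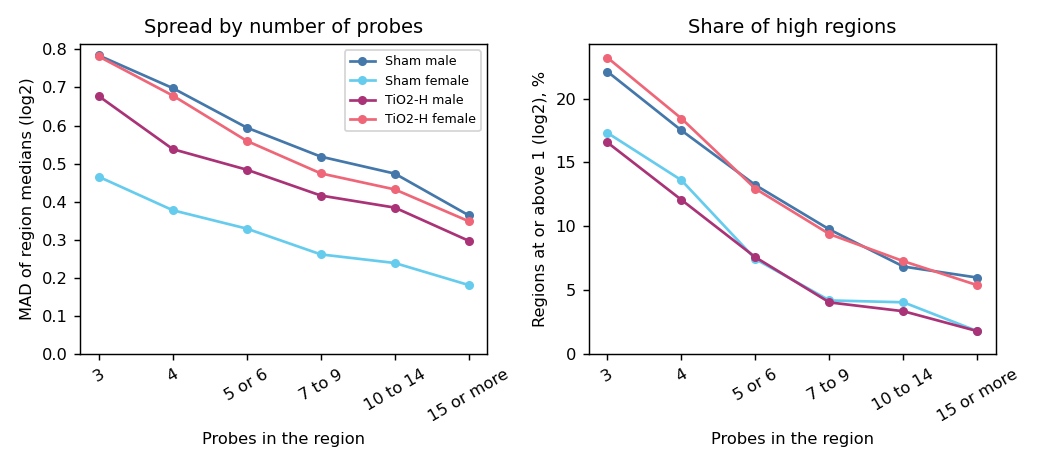
Spread (MAD, log2, left) and share of regions at or above 1 (%, right) by the number of probes in the region, 1 line per array. Both fell from the regions with 3 probes to those with 15 or more on all 4 arrays, for example from 22.1% to 5.99% on the Sham male array.

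Among small regions, the share at or above 1 was largest in the physically shortest. Of 477 regions of at most 300 bp, 27.0%, 22.9%, 19.3% and 27.7% were at or above 1. Of 231 regions longer than 700 bp, these shares were 14.7%, 5.19%, 6.93% and 12.1%. Small regions within 5000 bp of another region were at or above 1 in 21.4%, 18.05%, 15.0% and 22.7% of 532 cases, and those over 100000 bp from any other in 17.6%, 12.7%, 13.7% and 18.7% of 466 cases. These classes were not tested against each other, since regions of 1 array are not replicates.

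Neighbouring probes inside a small region often differed. Probes at most 60 bp apart differed by a median of 1.19, 0.62, 0.95 and 1.06 on the 4 arrays, and probes over 300 bp apart by 1.56, 0.96, 1.17 and 1.43. The former values were 1.29, 0.67, 1.00 and 1.18 in longer regions. For scale, the MAD over single autosomal probes was 1.08, 0.602, 0.908 and 1.04 on the 4 arrays. Differences between unrelated probes were not read, so whether neighbours were more alike than these was not tested.

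Dim MeDIP signal limited the lower end of the scale. Cy5 was well above background at 56.2%, 65.9%, 28.3% and 37.5% of the probes of small regions on the 4 arrays in the same order, close to the 55.2%, 63.1%, 26.4% and 35.3% in longer regions. At every probe on all 4 arrays it was well above background in 113 small regions (3.44%) and in 28 longer regions (0.499%), and at no probe on any array in 92 small regions (2.80%). The 113 bright regions had medians of 1.86, 1.48, 1.45 and 1.87, and 99, 96, 90 and 107 of them were at or above 1. Input strength moved with the values on the array labelled TiO2-H male, where the median was 0.18 over the 821 small regions with the dimmest input and -0.34 over the 821 with the brightest. The Sham male array showed -0.015 and -0.038 in these groups, the Sham female array -0.085 and 0.15, and the TiO2-H female array 0.044 and -0.096, and the part of input strength in the results was not tested.

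High values recurred from array to array. Of the 3283 small regions, 301 (9.17%) were at or above 1 on all 4 arrays, against 209 (3.73%) of the longer regions. This count was 313 with quantile normalization, 222 with loess, 296 with a common spread and 75 with no centring, each time a larger share than in longer regions, and 0 in both classes with normexp. Longer regions were read here from all their probes, and the count over 4 arrays was not made with 3 probes each. On single arrays 23.2%, 11.9%, 13.6% and 23.0% of longer regions were at or above 1 with the middle 3 probes. With the first 3 probes these shares were 16.6%, 9.20%, 10.1% and 16.4%. On at least 1 array, 854 small regions reached 1, so that 35.2% of these did so on all 4, and 2429 did so on none. At the other end, 199 small regions (6.06%) and 246 longer regions (4.39%) were at or below -0.5 on all arrays. Across the 3283 small regions, pairs of arrays correlated with Pearson's r from 0.68 to 0.89, the highest value between the Sham male and TiO2-H female arrays and the lowest between the Sham female and TiO2-H male arrays. These correlations run across regions that share probes and base composition between arrays, and carry no p-value.

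The 301 regions that were high on all arrays had a median span of 361 bp and lay on all 19 autosomes. They made up from 3.59% of the small regions of chromosome 1 (6 of 167) to 16.6% of those of chromosome 10 (28 of 169). Their median input signal (log2 Cy3) was 9.74, against 9.70 among all small regions. Gene names and places were known for part of the regions only, because they came from the identity columns of a shortened probe list of the study that runs in order of a male exposure ratio. A symbol was found for 155 of the 301 high regions, and for 698 of all 3283 small regions. Among regions with a known place, 16 of 158 high regions (10.1%), 12 of 36 low regions (33.3%) and 158 of 697 small regions of any level (22.7%) lay at a promoter, and most other annotated probes lay inside a gene. These shares describe the named part of the array and were not tested.

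The 16 small regions that were high on all arrays and lay at a promoter were chosen after their values were seen, so they are listed without a test. Their means over the arrays ran from 1.29 to 2.51, and from -0.15 to 0.44 with normexp. The region at the Henmt1 promoter was the highest, with 3.02, 2.30, 1.92 and 2.79 on the 4 arrays. The Naa11 promoter followed with 2.29, 1.89, 1.95 and 2.24. Next were regions without a symbol on chromosomes 9 and 14 (starts 60369662 and 55432969), with means over the arrays of 2.08 and 1.99. Tmprss12, a testis serine protease, had 1.39, 1.53, 2.01 and 2.07. Btbd18, which is needed for piRNA production in male germ cells, had 1.57, 1.47, 1.50 and 1.82. Gltp, a glycolipid transfer protein, and Epcam, an adhesion molecule of epithelia, had means of 1.71 and 1.63. Kcnn1, a calcium-activated potassium channel of neurons, had a mean of 1.60, and Btbd18 one of 1.59. Other members were Csf2ra, a cytokine receptor chain, Prrt4, Nemp2 and a region shared by Tmem253 and Zfp219. Of the 14 of these genes with a window in the promoter table, 7 held TCCCGC on either strand (GCGGGA), the core of the E2F motif, against 20.0% of all promoters, and 2 held the palindromic E-box CACGTG, against 7.24%. The former were Csf2ra, Epcam, Naa11, Nemp2, Prrt4, Tmprss12 and Tuba3a, and the latter Epcam and Stk31. Both motifs hold a CpG. All promoters had a median of 7 CpGs per 300 bases, against 21 for genes with a small region at their promoter. No set matched for CpG content was read, and the part of CpG content in these shares was not tested. A match describes the letters of the window only.

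Lists of germline, imprinted, housekeeping and neural genes were read against the small regions. The germline list held 55 genes chosen as having promoter islands that are methylated in somatic tissue. Of these, 17 had a symbol on any autosomal region, and 4 had a small region, each at a promoter. Hormad1 (chr3:95363378-95363703, mm9, 3 probes) measured 0.93, 1.32, 1.22 and 1.75 on the 4 arrays. Stk31 (chr6:49345373-49345780, 4 probes) measured 1.98, 1.72, 1.75 and 2.17, with Cy5 well above background at all probes. These are the promoters printed above with 24 and 29 CpGs. Tuba3a (chr6:125235862-125236181, 3 probes) measured 1.07, 1.17, 1.72 and 1.57. Piwil2 (chr14:70828758-70829118, 3 probes), which encodes a PIWI protein of the piRNA pathway, measured 1.52, 1.15, 1.25 and 1.60. The medians of the 4 regions were 1.30, 1.24, 1.49 and 1.68, where all small regions had -0.04, 0.04, -0.06 and -0.06. Methylation was the ground of the list, which was written with earlier results of these data known, so these medians are no independent evidence. With a normexp background correction the mean of Stk31 over the arrays fell from 1.91 to -0.066, on a scale where probes within the region differed by 2.44 on average. The means of Hormad1, Tuba3a and Piwil2 fell from 1.31, 1.38 and 1.38 to 0.30, 0.26 and 0.046.

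Of 49 imprinted genes, 3 had a small region. Zim1, an imprinted zinc finger gene of the Peg3 cluster, measured 0.92, 0.33, 0.09 and 0.88 at its promoter (chr7:6648975-6649316), with Cy5 bright enough at 1 of 4 probes of the TiO2-H male pool. Dlk1, an imprinted ligand related to Notch ligands, measured 0.54, 0.54, 0.99 and 1.21 inside the gene (chr12:110697905-110698305). Slc38a4, an imprinted amino acid transporter, measured 0.58, 1.29, 1.29 and 1.71 inside the gene (chr15:96884810-96885274). All 3 were above 0 on all arrays as measured, but the mean of Zim1 (0.56) turned to -0.081 with normexp and to -0.018 with no centring. The housekeeping list had 1 small region, of the proteasome subunit gene Psmb2, at 0.48, -0.14, -0.62 and 0.16. The neural list had 2, of Hes1 and Tubb3, with medians of -0.27, -0.35, -0.09 and -0.14. Of the genes that the study followed, Cyp4f39, a fatty acid hydroxylase, had a small region (chr17:32589497-32589872) at -0.56, 0.92, -1.30 and -0.86, with Cy5 above background at 0 of 3 probes on the TiO2-H male array and 1 of 3 on the TiO2-H female array. The Cyp4f39 region had 2 measured probes in each exposure comparison, short of the 3 needed, so no fold was scored. The paper also measured Cyp4f39 in single offspring, by capture with methyl-binding proteins and qPCR, and reports a significant decrease. The list was chosen by the study on these samples and is no independent evidence.

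Among the 113 small regions with Cy5 well above background at every probe, 6 had the highest means over the arrays. Their levels depended on the background correction, with means from 2.55 to 3.44 as measured, from 0.18 to 0.62 with normexp and from 0.49 to 1.40 with loess. A region of 230 bp on chromosome 3 (chr3:8462856-8463085) measured 4.45, 2.61, 2.80 and 3.92 on the 4 arrays. A region of 252 bp on chromosome 4 (chr4:153715735-153715986) measured 4.25, 2.90, 2.23 and 3.35. Neither had a symbol in the probe list used. A region inside Mboat7 (chr7:3637239-3637632), which encodes a phosphatidylinositol acyltransferase, measured 3.01, 2.46, 2.57 and 3.71. A region inside Crocc (chr4:140581070-140581513), the gene of the ciliary rootlet protein rootletin, measured 3.26, 2.17, 2.42 and 3.004. The 2 remaining regions of the top 6, on chromosomes 2 (chr2:180763528-180763869) and 5 (chr5:115060757-115061303), had means of 2.74 and 2.55. In all 6 regions the Sham male and TiO2-H female arrays held the top 2 values. These arrays also had the widest spread over single autosomal probes, with a MAD of 1.08 and 1.04 (Sham female 0.602, TiO2-H male 0.908), and the part of this spread in the order was not tested.

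The 4 lowest small regions lay on chromosomes 10, 11, 7 and 15 (starts 81167549, 53138130, 50699246 and 50721578), with means over the arrays of -2.20, -2.03, -2.01 and -1.98. Each of them had at most 1 probe with Cy5 well above background on each array other than Sham female, so most of their signals there were at background. The region on chromosome 7 read 0.28 on the Sham female array, where all 4 probes were above background, and -3.32, -2.18 and -2.82 on the Sham male, TiO2-H male and TiO2-H female arrays.

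Bright small regions differed in how steady they were. Ptgfrn, which encodes a membrane protein that associates with tetraspanins, had the steadiest annotated region (chr3:100881021-100881294), at 1.65, 1.61, 1.82 and 1.79, and its 3 probes differed by 0.59 on average. A region on chromosome 6 (chr6:58781482-58781965) was as steady, at 0.34, 0.54, 0.40 and 0.51, although its 3 probes differed by 1.92. A region on chromosome 11 (chr11:116359924-116360205) had the widest range, at 2.88, 0.99, 0.46 and 1.70. A region on chromosome 8 (chr8:3537772-3538018) followed, at 3.13, 1.59, 1.04 and 2.10. Within a region, probes of 1 array differed most on chromosome 6 (chr6:39206680-39206970), by 5.06 on average. On the same chromosome a second region (chr6:131383710-131384019) had a mean probe range of 3.64, and a region inside Tmem54 (chr4:128782610-128782998) had 3.40. Their region medians averaged 1.08, 1.86 and 1.76 over the arrays. With normexp the mean turned below 0 for the chromosome 11 region, Tmem54 and both chr6:39206680-39206970 and chr6:58781482-58781965, the latter from 0.45 to -0.60.

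**Figure D3:**
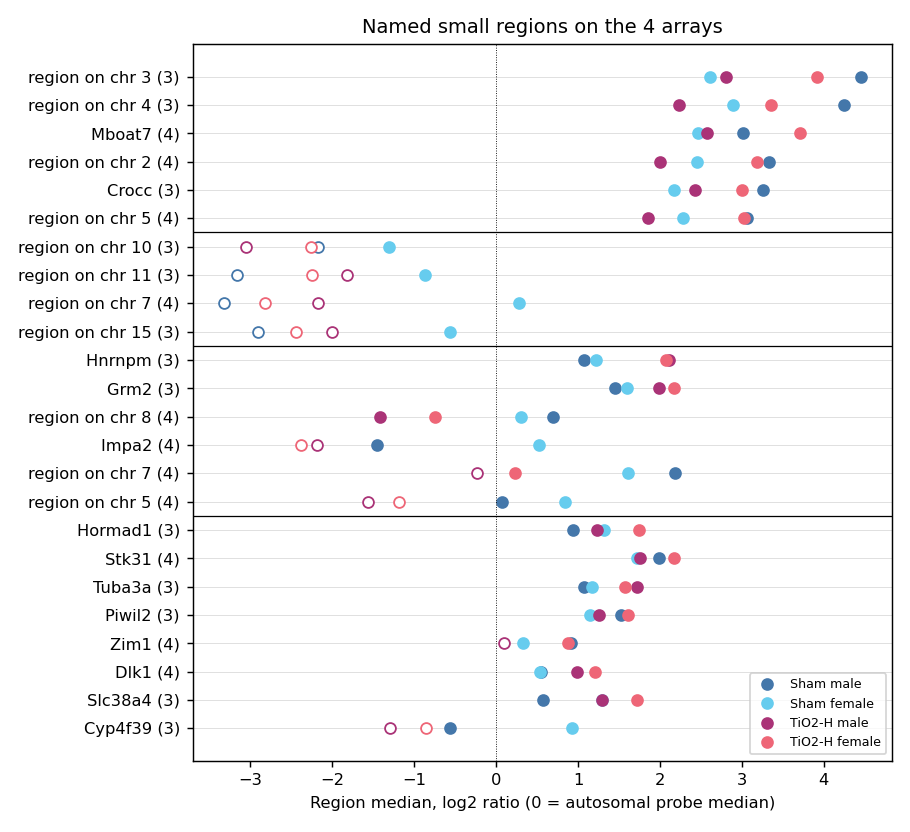
Region medians (log2 ratio, 0 is the median autosomal probe) of named small regions on the 4 arrays, with the number of probes in brackets. Blocks from top to bottom are the 6 highest among the 113 regions bright at every probe, the 4 lowest of all, the regions changed alike in both exposure comparisons, and the list genes. Open circles mark arrays on which most probes of the region had Cy5 not well above background, as in the low regions on 3 of 4 arrays. The 4 germline promoters (Hormad1, Stk31, Tuba3a and Piwil2) lay between 0.93 and 2.17.

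The exposure comparison set each TiO2-H array against the Sham array of the same sex label, with 1 pool on each side and therefore no test. A region counted as measured with 3 or more probes whose input was well above background on both arrays, whose Cy5 was so on at least 1, and whose log ratio had a scanner p-value under 0.05 on at least 1. It rose or fell where the median fold was at least 1.5 or at most 0.67. This rule selects regions that are bright on at least 1 array, and it measured 637 small regions (19.4%) in the male comparison and 1055 (32.1%) in the female comparison.

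In the male comparison 7 of the 637 measured small regions rose and 373 fell (58.6%), where 0.594% of all 5896 measured autosomal regions rose and 60.9% fell. Among the 1055 of the female comparison, 134 rose (12.7%) and 329 fell (31.2%), where 17.1% of all 7182 measured regions rose and 32.7% fell. The falls among small regions were near those of all regions, and the female rises somewhat fewer. The female rises depended on the scaling, with 6 (normexp), 5 (quantile), 5 (loess), 4 (common spread) and 15 (no centring) in place of 134, beside 333 to 619 falls. Of the male falls, 297 had Cy5 not well above background on 1 array at 1 or more measured probes, and 237 of the 373 stayed past the fold when such probes were held at the lowest signal above background. Of the female falls, 325 of 329 had such probes and 73 stayed past the fold. With the stricter need for bright Cy5 on each array of a pair, 6 of 259 small regions rose and 110 fell in the male comparison (all regions 0.973% and 54.2%). The female comparison then had 138 rises and 10 falls among 474 (all regions 49.2% and 1.61%), so its split turned from mostly falls to mostly rises. With no filter on dim probes, 453 of the 3283 small regions rose and 735 fell in the male comparison (all regions 10.2% and 17.0%), and 487 rose and 570 fell in the female comparison (all regions 14.5% and 13.8%).

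Pairs of arrays with the same exposure also differed. The Sham female array over the Sham male array gave 321 rises and 242 falls among 1178 measured small regions (27.2% and 20.5%), where 24.2% of all regions rose and 23.9% fell. The TiO2-H female array over the TiO2-H male array gave 152 rises and 0 falls among 271 (56.1% rose), where 70.0% of all regions rose. Crossing the sex labels of these 2 arrays, to pair the arrays with low X-linked input and those with high X-linked input, left 38 rises and 111 falls among 670 small regions in the former pair (all regions 2.72% and 11.2%) and 4 rises and 435 falls among 911 in the latter (all regions 0.168% and 47.6%). Past the fold in either direction were 59.7% (male) and 43.9% (female) of the measured small regions between exposures, where all regions had 61.5% and 49.8%. Between pools of 1 exposure the shares were 47.8% (Sham) and 56.1% (TiO2-H), where all regions had 48.1% and 70.0%. With normexp the shares of small regions were 28.5% (Sham pair), 3.32% (TiO2-H pair), 12.6% (male) and 39.1% (female). All regions then had 31.2%, 3.08%, 8.11% and 43.4%. With loess the shares in this order were 30.7%, 2.58%, 12.1% and 32.0%, where all regions had 29.1%, 1.42%, 6.53% and 28.9%. With no centring they were 49.1%, 25.1%, 53.8% and 54.9%, where all regions had 46.2%, 33.0%, 54.0% and 56.5%.

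**Figure D4:**
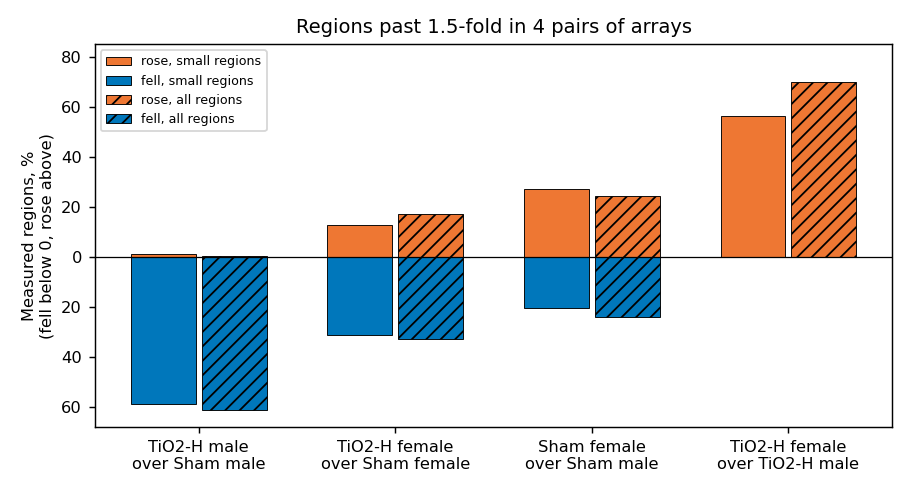
Share of measured regions that rose (orange, upward) or fell (blue, downward) past 1.5-fold in 4 pairs of arrays, for small regions (plain) and all autosomal regions (hatched). The 2 left pairs differ in exposure and the 2 right pairs in sex label. Small regions were farthest from all regions in the TiO2-H pair (56.1% against 70.0% rises). In the male comparison 58.6% of small regions fell, against 60.9% of all regions.

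The share of changed regions graded with the number of probes in every pair. With all regions read, 41.1% of the regions with 3 probes and 32.2% of those with 4 passed the fold in the male comparison, against 8.38% with 15 or more. The female comparison had 34.4%, 30.4% and 14.4%, the Sham pair 38.1%, 31.1% and 12.0%, and the TiO2-H pair 31.3%, 23.9% and 5.99%. Over all 12659 regions read in this way the shares were 27.1%, 28.3%, 27.8% and 19.9% in these 4 pairs. Longer regions read from their middle 3 probes passed the fold in 39.6%, 43.3%, 41.9% and 34.2% of cases.

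**Figure D5:**
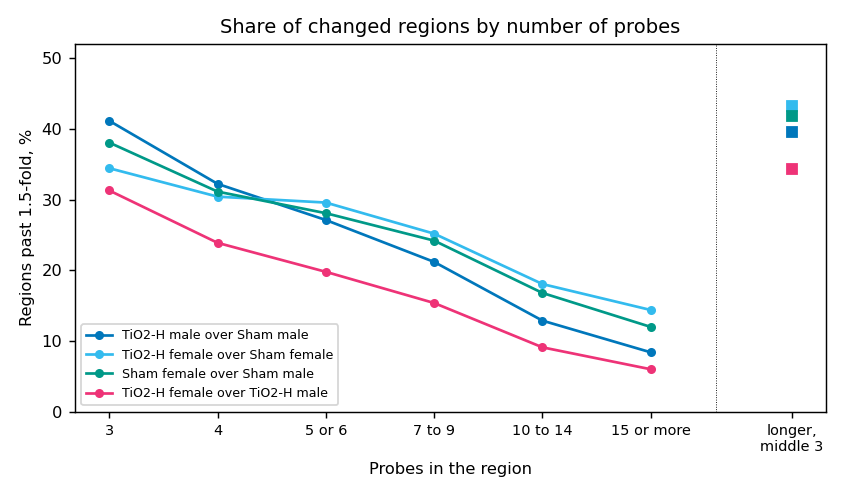
Share of regions past 1.5-fold in either direction (%) by the number of probes, with no filter on dim Cy5, in 4 pairs of arrays. Squares at the right are longer regions read from 3 probes, which lay between 34.2% and 43.3%, at or above the level of the regions with 3 probes in each pair but the male comparison.

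Both comparisons could be read together in a part of the regions. Of 476 measured in both comparisons, 2 rose in both (all 5076 such regions 0.118%), 44 fell in both (9.24%, all regions 14.4%), and 64 fell in the male and rose in the female comparison (13.4%, all regions 15.3%). Under 5 other scalings 0 rose in both, 20 to 108 fell in both, and 0 to 10 fell in the male and rose in the female comparison. Of the 44 joint falls, 0 had Cy5 well above background at all measured probes on all arrays, and 10 stayed past the fold in both comparisons as bounds. The joint rises had names. A region inside Hnrnpm (chr17:33786780-33787118), the gene of a splicing regulator, measured 1.08 and 1.22 on the Sham male and Sham female arrays and 2.11 and 2.08 on the TiO2-H male and TiO2-H female arrays, a 1.71-fold rise between the male-labelled pools and a 1.81-fold rise between the female-labelled ones. A region inside Grm2 (chr9:106553157-106553432), which encodes a presynaptic metabotropic glutamate receptor, measured 1.45 and 1.59 against 1.98 and 2.17, or 1.57-fold and 1.71-fold. Both regions were picked for their rise in both comparisons, so TiO2-H values above the Sham values are no further evidence. Both TiO2-H values lay above both Sham values in 14.3% of all small regions and in 14.4% of all regions. When the arrays were scaled to a common spread, the female log2 fold turned to -0.018 for Hnrnpm and -0.28 for Grm2. The fit across all regions gave 0.94 ± 0.33 (SE) for Hnrnpm and 0.56 ± 0.33 for Grm2 on the log2 scale, with limma adjusted p = 0.62 and 0.983.

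The 4 largest joint falls lay on chromosomes 8, 18, 7 and 5. The region on chromosome 8 (chr8:73429823-73430530) measured 0.69 and 0.30 on the Sham male and Sham female arrays and -1.42 and -0.75 on the TiO2-H male and TiO2-H female arrays, medians over 4 probes. Over the 3 probes that counted as measured it fell by at least 6.48-fold (male) and by 4.07-fold (female), and over all 4 probes the median log2 fold was -1.86 and -0.94. The region inside Impa2 (chr18:67448771-67449298), an inositol monophosphatase gene, measured -1.45 and 0.52 against -2.19 and -2.38, and its bound was at least 1.09-fold lower (male) and at least 3.78-fold lower (female). A region on chromosome 7 (chr7:148547330-148547788) measured 2.19 and 1.61 against -0.23 and 0.23, at least 4.00-fold and at least 1.32-fold lower. The region on chromosome 5 (chr5:33882848-33883192) measured 0.08 and 0.84 against -1.57 and -1.18, at least 1.10-fold lower over its 3 measured probes (male) and at least 1.57-fold lower over 4 (female). Of these 4, only the chromosome 8 region kept both falls past 1.5-fold as bounds. The male log2 fold of Impa2 turned above 0 with normexp and with loess, and that of the chromosome 5 region with normexp. The mean level of the chromosome 7 region turned below 0 with both. Its male log2 fold moved from -2.85 to -0.52 with normexp, short of the fold threshold, and to -0.96 with loess. The bounds hold only for the values without rescaling. For the chromosome 8 region the male log2 fold moved from -2.91 to -0.89 with normexp and -0.85 with loess. Its female log2 fold was -2.03, -2.70 and -2.05 in the same order.

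Across all arrays, 577 small regions (17.6%) had both TiO2-H values below both Sham values, where 16.6% of all regions did, and 470 (14.3%) had both above, where 14.4% did. The limma fit of both TiO2-H against both Sham arrays took the pools of the 2 sex labels as replicates and ran over 7453 regions. It called 0 of 2061 small regions at an adjusted p under 0.05, with 3 regions called in all (0% higher and 0.0403% lower). At an unadjusted p under 0.05 there were 171 small regions, 12 higher and 159 lower, where 0.564% of all tested regions were higher and 5.34% lower. The smallest adjusted p of a small region was 0.119, shared by the falls on chromosomes 7 and 5. Their log2 differences were -1.90 ± 0.36 and -1.84 ± 0.37 (SE, n = 2 arrays against 2, limma). The count rested on single arrays, with 44 small regions called without the Sham male array (all regions 1.46%), 13 without the Sham female array (0.416%), 0 without the TiO2-H male array (0.0805%) and 21 without the TiO2-H female array (0.537%). With the sex label as a block 13 were called (all regions 0.349%), and with the X-linked input class as a block 9 (0.268%). In simulated data of this size the fit found 0 of 200 changed regions at a log2 change of 1. It found 194 at 2 and 200 at 3. Its false calls numbered 0, 6 and 10 in the same order. The real arrays differed in spread, with a MAD over single autosomal probes from 0.602 (Sham female) to 1.08 (Sham male). The simulated counts hold for the simulated data only, and the power of the fit on the real arrays was not tested.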

How the data were processed

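Pooled brain DNA of 4 groups was hybridised to 4 mouse CpG island arrays with 2 colours, Cy5 for MeDIP DNA and Cy3 for input. The authors extracted the signals with the scanner software (Agilent Feature Extraction 10.7.3.1). It removed background and spatial trends and scaled each dye linearly within an array, which gave the deposited intensity values. The deposited log10 ratio divides Cy5 by Cy3, and the deposited p-value of a spot follows from the software's error model. The deposited series table held the same log10 ratios.

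From these, log2 ratios were centred on the autosomal median of each array, with no loess or quantile step, since many probes carry signal. Probes were joined into regions at a gap of at most 1000 bp on mm9. Folds, measured probes and thresholds are as given in the text. Control spots were left out. The fit of regions used limma 3.58.1 in R 4.3.3 with Benjamini-Hochberg adjustment, tested on simulated data, and the other steps used pandas 2.3.3, numpy 2.4.6 and scipy 1.17.1. The arrays are pools, and their number limits the precision.

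The scanner files hold no gene names. Symbols and places came from the identity columns of probe lists in the study's supplement, joined by probe name and position and updated by accession through RefSeq. Of 5453 rows of the main list, which is shortened and runs in order of a male exposure ratio, 369 did not match an autosomal probe, and symbols reached 5147 autosomal probes, 5040 of them with an accession in the RefSeq table. Ratio columns of those lists were not used.

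Regions were named by rule. These were the 6 highest, the steadiest 2 and least steady 4, and the 3 most uneven among regions with Cy5 well above background at every probe on all arrays, the 4 lowest of all, the 4 largest rises and falls shared by both comparisons, and list genes. The members and lists were chosen with earlier results of these data known. Alternatives covered scaling, background, region gap, filters, the probes read, crossed sex labels, blocks and leaving out each array.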

Additional observations from a re-analysis of the deposited data

Results flagged for a closer look

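Of the 476 small regions measured in both exposure comparisons, 64 fell in the male and rose in the female comparison, and 0 did the reverse. The effects had opposite signs in the 2 sex labels, and the difference was not tested, because each label had 1 array per exposure. Longer regions showed the same split, with 470 of 3068 against 0. The count depended on the brightness rule and the scaling. With no filter on dim probes 146 of 3283 small regions fell in the male and rose in the female comparison and 128 did the reverse, and among the 476 the count was 0 with normexp, quantile normalization and a common spread, 2 with loess and 10 with no centring. The X-linked input of the TiO2-H arrays ran against their sex labels, so sex and exposure cannot be told apart in this pattern.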

How the results depend on the processing

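The mean difference between small and longer regions kept its sign in all scaling, gap and filter alternatives (0.031 with normexp against 0.102) except where Cy5 had to be above background at every probe, at -0.14 (-0.20 on the Sham female, -0.21 on the TiO2-H male and -0.18 on the TiO2-H female array), and with longer regions read from their middle 3 probes, at -0.060 (-0.14 on the Sham male and -0.13 on the TiO2-H female array). The spread ratio was then 0.928, and 1.01 with the first 3 probes, an alternative chosen after seeing the data, as were those of the pairs of 1 exposure, of the high regions and of the changes shared by both comparisons. The 301 small regions high on all arrays became 75 with no centring and 0 with normexp.

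Changed small regions in the male comparison numbered 380, and 80 with normexp, 77 with loess, 1188 with no filter, 116 with Cy5 above background on both arrays and 149 with crossed sex labels. The 463 of the female comparison became 1057 with no filter and 148 with Cy5 on both arrays, and its 134 rises 4 to 15 under the other scalings. The 563 of the Sham pair became 336 with normexp, 362 with loess and 1123 with no filter. The 152 of the TiO2-H pair became 9 with normexp, 72 with quantile normalization, 7 with loess, 96 with a common spread, 68 with no centring and 892 with no filter. The cause was not tested.

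The limma count of 0 small regions became 7 with quantile normalization, 1 with a gap of 500 bp, 13 with the sex label as a block and 9 with the X-linked input class as a block, and ranged from 0 to 44 when 1 array was left out. The labels carry no replicate numbers, so the sex label, which is also the slide, was the only pairing.

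Named values that turned sign were the mean of the region on chromosome 11 from 116359924 (-0.19 with normexp), of that on chromosome 6 from 58781482 (-0.60 with normexp, -0.19 with loess, -0.13 with no centring), of that on chromosome 7 from 148547330 (-0.16 with normexp, -0.26 with loess), of Zim1 (-0.081 with normexp, -0.018 with no centring), of that on chromosome 6 from 39206680 (-0.14 with normexp, -0.046 with loess), of Tmem54 (-0.38 and -0.12) and of Stk31 (-0.066 with normexp), the female log2 fold of Hnrnpm (-0.018) and Grm2 (-0.28) with a common spread, and the male log2 fold of Impa2 (0.076 with normexp, 0.043 with loess) and of the chromosome 5 region (0.083 with normexp).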
